A study of Mus musculus with 12 samples.

Results

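The 33 genes described here are the targets and partners of ATF4 in the amino acid response. They were listed by symbol, not by a cut on their values, but with earlier results of these data known. The RNA-seq table of cultured mouse retina held 53707 genes. All 33 were among the 21061 genes that passed the filter on low counts. Retinas of wild-type C57Bl/6J mice, 28 days of age (P28), were freed of the pigment epithelium and kept for 48 hours in Neurobasal-A medium with either 5 mM or 25 mM glucose. The comparison asks which transcripts differ between low and high glucose. Each condition had 3 biological replicates, and each of these had 2 technical replicates, the first in batch 1 and the second in batch 2, giving 12 libraries. No group carried a gene deletion or a drug, and the labels do not say how many animals went into a replicate, so p-values measure the spread between these samples only.

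ATF4 is a transcription factor whose mRNA is translated more efficiently when the initiation factor eIF2 alpha is phosphorylated, for instance when amino acids run short or unfolded proteins accumulate. It pairs with C/EBP proteins at composite DNA elements and switches on genes for amino acid synthesis, amino acid uptake and tRNA charging, together with regulators such as CHOP (Ddit3) that shape the later response. Because much of its control is translational, the level of Atf4 mRNA is a limited measure of ATF4 activity.

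The promoter sequences are shown first because they show where the DNA element that names this group of genes stands in individual members. The core of the composite element was searched as TGATGNAA on both strands, where its reverse is TTNCATCA, in RefSeq promoter windows of GRCm38.p6 that run from 250 bases before a start site to 50 bases after it. Of the 33 genes, 27 had a window, and Cth, Aldh1l2, Slc7a5, Slc1a5, Wars and Nars did not. A core was present in 9 of these 27 genes (33.3%), against 4.51% of the 27025 genes with a window in the whole table. Since the members were listed as targets and partners of ATF4, this contrast is a description and not a test of the list. Of the 9 genes, 8 are printed below 5′ to 3′ on the strand of the gene, 30 bases each, with the core in capitals.
Slc7a11, both cores: cTGATGCAAacctggagaatTTGCATCAtc
Asns: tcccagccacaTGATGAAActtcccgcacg
Chac1: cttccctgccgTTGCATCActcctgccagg
Nupr1: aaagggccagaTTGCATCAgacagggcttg
Trib3: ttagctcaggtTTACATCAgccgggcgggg
Vldlr: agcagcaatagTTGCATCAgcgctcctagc
Slc1a4: tgcctcctgcgTTGCATCAtctccagcctg
Gars: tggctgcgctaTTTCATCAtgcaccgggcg

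The window of Slc7a11 lies at chr3:50443651-50443680 on the minus strand, outside the annotated gene, and is the only one of the 8 printed with a core in each orientation, at -66 and at -47, counted from the RefSeq start site as 0. The windows of Chac1 (chr2:119351038-119351067, plus strand, core at -193) and Gars (chr6:55037960-55037989, plus strand, core at -30) also lie outside the annotated gene. Those of Asns (chr6:7693214-7693243, minus strand, core at -23), Nupr1 (chr7:126625562-126625591, minus strand, core at -110) and Vldlr (chr19:27216809-27216838, plus strand, core at -200) precede a RefSeq start site but fall within exons of other transcripts of the same gene in GENCODE. The core of Slc1a4 begins at -4 (chr11:20332699-20332728, minus strand). The core of Trib3 lies at 14 bases past the start (chr2:152344028-152344057, minus strand). These are matches of letters, not measured binding. The median log2 fold change between the glucose conditions, described next, was -0.29 over the 9 genes with a core and -0.49 over the 18 genes with a window and no core.

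Most of the 33 genes had lower levels at 25 mM than at 5 mM glucose, but no member passed an FDR of 0.05. The log2 fold change of 25 mM over 5 mM was negative for 30 of the 33, with a median of -0.34, where 50.7% of all tested genes were negative and their median was -0.01. In edgeR's quasi-likelihood test, with p-values adjusted over all genes by the Benjamini-Hochberg method, 0 of 33 members were called, beside 1.98% of all genes. The lowest FDR among members was 0.0615 and the lowest of any gene 0.0217. At an unadjusted p under 0.05, 11 members were lower (15.5% of all genes) and 1 was higher (13.2% of all genes). DESeq2 called 7 of 33 members at an FDR under 0.05 (16.6% of all genes), and limma-voom called 0 (418 of all 21061 genes). At an FDR under 0.1, edgeR called 6 members lower, against 7.76% of all genes, and 1 higher, against 6.65%. The summed level of the 33 genes, in CPM (counts scaled to a common library size), was 4076 to 4199 in the 5 mM replicates and 2790 to 3641 in the 25 mM replicates. Slc7a11 alone held 629.6 to 1059 CPM of this sum at 5 mM and 150.3 to 427 CPM at 25 mM. Without Slc7a11 the sums of the conditions overlap. In bulk tissue such as this, fewer cells of a type and less RNA per cell cannot be told apart.

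**Figure D1:**
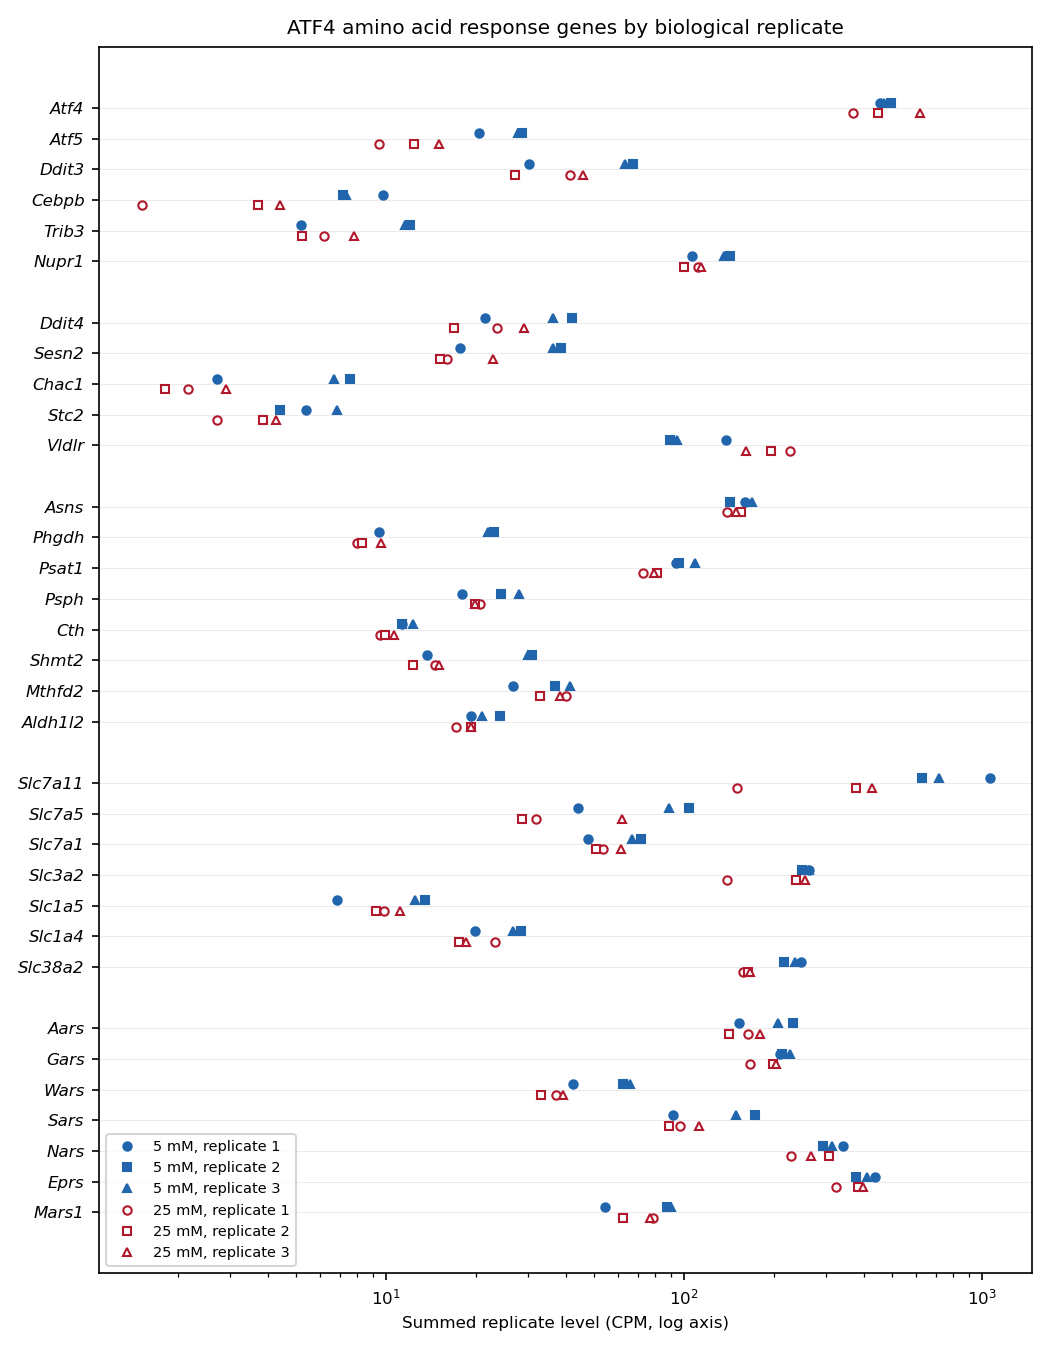
Level of each of the 33 genes in the 6 summed biological replicates, in CPM on a log axis, grouped from top to bottom into transcription factors and partners, effectors, synthesis enzymes, transporters and tRNA synthetases. Filled blue points are 5 mM and open red points 25 mM glucose, with one marker shape per replicate; Atf5, Cebpb, Slc7a11 and Slc38a2 show no overlap, and 5 mM replicate 1 (filled circle) lies low in Ddit3, Phgdh and Shmt2.

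In 10 genes the 5 mM and 25 mM replicates were fully separated. In 9 members, Atf5, Cebpb, Stc2, Psat1, Cth, Slc7a11, Slc38a2, Gars and Wars, every 25 mM value was below every 5 mM value, beside 15.8% of all tested genes. In 1 member, Vldlr, every 25 mM value was higher, beside 16.0% of all genes. The plot of levels by replicate shows these genes and the overlap of the other 23.

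Among the transcription factors and partners, the levels of Atf4 itself overlapped between the conditions. Atf4 (chr15:80255184-80257541) had 455, 496 and 469 CPM in 5 mM replicates 1, 2 and 3, and 368, 446 and 618 CPM in the 25 mM replicates. The highest and the lowest of the 6 values were both from 25 mM, and the log2 fold change was 0.01 with a standard error of 0.22 (edgeR FDR 0.974). Per transcript length, Atf4 had the highest mean of the 33 genes, 524 TPM (a level scaled for transcript length) at 5 mM and 546 TPM at 25 mM.

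Atf5, a related factor that is itself translated under eIF2 alpha phosphorylation, had 20.5, 28.6 and 27.7 CPM at 5 mM and 9.48, 12.4 and 15.0 CPM at 25 mM. All 25 mM values were below all 5 mM values. Its log2 fold change was -1.06 with a standard error of 0.25 and the lowest FDR of the members (edgeR, 0.0615; DESeq2, 0.00256). Its gene (chr7:44812256-44816658, minus strand) shares exon sequence with Il4i1 and Nup62 on the opposite strand.

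Cebpb, a C/EBP partner of ATF4 at its target elements, had 9.72, 7.15 and 7.32 CPM at 5 mM and 1.51, 3.72 and 4.41 CPM at 25 mM. The values did not overlap and the log2 fold change was -1.33 with a standard error of 0.40 (edgeR FDR 0.0889; DESeq2 FDR 0.0119). Its single exon overlaps Tmem189 on the opposite strand, so part of its counts is uncertain if counting ignored strand, which the sources used here do not say.

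Ddit3, which encodes CHOP, had 30.2, 67.4 and 63.4 CPM at 5 mM and 41.3, 27.0 and 45.8 CPM at 25 mM, so that 5 mM replicate 1 fell among the 25 mM values (log2 fold change -0.50, edgeR FDR 0.337). Trib3, a pseudokinase that restrains ATF4 and CHOP, had 5.17, 11.99 and 11.6 CPM at 5 mM and 6.19, 5.23 and 7.80 CPM at 25 mM, with 5 mM replicate 1 the lowest of all (-0.58, edgeR FDR 0.311). Nupr1, a small chromatin protein of the stress response, had 106, 142 and 136 CPM at 5 mM and 111, 99.5 and 114 CPM at 25 mM (-0.24, edgeR FDR 0.363). In all 3 genes the 5 mM replicates 2 and 3 were the 2 highest values.

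The effectors held the member whose 25 mM values were all higher. Vldlr, a lipoprotein receptor whose gene ATF4 can induce under stress, had 138, 89.5 and 94.7 CPM at 5 mM and 227, 195 and 161 CPM at 25 mM. Every 25 mM value was above every 5 mM value, with a log2 fold change of 0.86 and a standard error of 0.22 (edgeR FDR 0.0705; DESeq2 FDR 0.0142). Its promoter window holds a core, as do those of Asns and Slc7a11, whose fold changes were close to 0 and negative.

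Chac1, which degrades glutathione, had 2.71, 7.58 and 6.68 CPM at 5 mM and 2.16, 1.81 and 2.89 CPM at 25 mM. Only 5 mM replicate 1 overlapped the 25 mM values, and the log2 fold change was -1.30 with a standard error of 0.42 (edgeR FDR 0.0974; DESeq2 FDR 0.0190). The lowest summed count of Chac1 in a replicate was 66. Sesn2, a leucine sensor that restrains mTORC1, had 17.7, 38.5 and 36.3 CPM at 5 mM against 16.0, 15.2 and 22.8 CPM (-0.78, edgeR FDR 0.157). Ddit4, another inhibitor of mTORC1 signalling, had 21.4, 42.0 and 36.3 CPM against 23.5, 16.9 and 28.9 CPM (-0.52, edgeR FDR 0.275). Both showed 5 mM replicate 1 at the level of the 25 mM samples. Stc2, a secreted glycoprotein, had 5.40, 4.41 and 6.83 CPM against 2.71, 3.86 and 4.27 CPM, without overlap (-0.62, edgeR FDR 0.205).

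In the amino acid and one-carbon synthesis group, 7 of 8 genes had a negative fold change and the median was -0.21. Phgdh (chr3:98313170-98339990, minus strand), which commits a glycolytic intermediate to serine synthesis, had 9.48, 23.0 and 21.9 CPM at 5 mM and 7.95, 8.32 and 9.63 CPM at 25 mM. Its 5 mM replicate 1 sat within the 25 mM range, and the log2 fold change was -1.07 with a standard error of 0.34 (edgeR FDR 0.0983; DESeq2 FDR 0.0246). Shmt2, which splits serine into glycine and a folate-bound carbon unit in mitochondria, was arranged alike, with 13.7, 30.9 and 29.8 CPM against 14.6, 12.3 and 15.0 CPM (-0.83, edgeR FDR 0.134).

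Psat1, the next enzyme of serine synthesis, had 93.6, 95.9 and 109 CPM at 5 mM and 72.5, 81.0 and 79.0 CPM at 25 mM. These values did not overlap, with a log2 fold change of -0.36 (edgeR FDR 0.160). Psph, the last enzyme of the pathway, which overlaps Cct6a on the opposite strand, had 17.9, 24.2 and 27.9 CPM against 20.7, 19.9 and 19.8 CPM (-0.21, edgeR FDR 0.528). Whether the fold changes of the 3 serine enzymes differ from each other was not tested.

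Asns, the asparagine synthetase and a standard reporter of the amino acid response, had 160.4, 143 and 169 CPM at 5 mM and 139, 155 and 149.6 CPM at 25 mM. The groups overlapped and the log2 fold change was -0.09 with a standard error of 0.15 (edgeR FDR 0.713). Mthfd2, a mitochondrial folate enzyme, had 26.6, 36.8 and 41.5 CPM against 40.2, 32.7 and 38.4 CPM (0.09, edgeR FDR 0.810). Cth, which makes cysteine from cystathionine, and Aldh1l2, a mitochondrial folate dehydrogenase that overlaps D10Wsu102e on the opposite strand, had log2 fold changes of -0.22 and -0.21.

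All 7 amino acid transporters had negative fold changes, with a median of -0.34, and their summed level was 1312 to 1684 CPM at 5 mM and 565 to 1001 CPM at 25 mM. Slc7a11 (chr3:49892526-50443614, minus strand), the cystine-glutamate exchanger xCT, was the largest term of this sum at 5 mM. It had 1059, 629.6 and 714 CPM at 5 mM and 150.3, 377 and 427 CPM at 25 mM. Every 25 mM value was lower, and the log2 fold change was -1.33 with a standard error of 0.39 (edgeR FDR 0.0838; DESeq2 FDR 0.0123).

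Slc38a2, the sodium-coupled neutral amino acid transporter SNAT2, had 246, 216 and 236 CPM at 5 mM and 157, 164 and 166 CPM at 25 mM. The 25 mM values were close together and all lower, with a log2 fold change of -0.52 and a standard error of 0.15 (edgeR FDR 0.0809; DESeq2 FDR 0.0232). Slc7a5, the LAT1 light chain that carries leucine, had 44.0, 104 and 88.8 CPM against 31.9, 28.6 and 62.0 CPM (-0.95, edgeR FDR 0.153). Its heavy chain Slc3a2, which also serves xCT, had 262, 249 and 262 CPM against 139.7, 237 and 254 CPM (-0.29, edgeR FDR 0.419). Slc3a2 was lower than the 5 mM range by a wide margin in 25 mM replicate 1 alone.

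The other 3 transporters overlapped between the conditions. Slc7a1, which imports arginine and lysine, had a log2 fold change of -0.17, Slc1a4, a neutral amino acid carrier, -0.34, and Slc1a5, the glutamine carrier ASCT2, -0.12. Their edgeR FDR values were 0.591, 0.330 and 0.807.

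All 7 tRNA synthetases also had negative fold changes, between -0.64 and -0.09. Wars, for tryptophan, had 42.3, 62.3 and 66.0 CPM at 5 mM and 37.2, 33.1 and 39.3 CPM at 25 mM, without overlap (-0.64 with a standard error of 0.21, edgeR FDR 0.100). Gars, for glycine, had 209, 213 and 226 CPM against 166, 198 and 203 CPM, also without overlap (-0.19, edgeR FDR 0.435). Sars, for serine, had 92.0, 173 and 149 CPM against 97.1, 89.1 and 112 CPM (-0.47, edgeR FDR 0.229). Aars, for alanine, which shares exon sequence with Exosc6 on the same strand, had a log2 fold change of -0.29, Nars, for asparagine, -0.24, and Eprs, for glutamate and proline, -0.15. Mars1, for methionine, had -0.09. Its 3′ end overlaps that of Ddit3 on the opposite strand at chr10:127296221-127296288. Reads of this short stretch cannot be told apart if counting ignored strand.

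**Figure D2:**
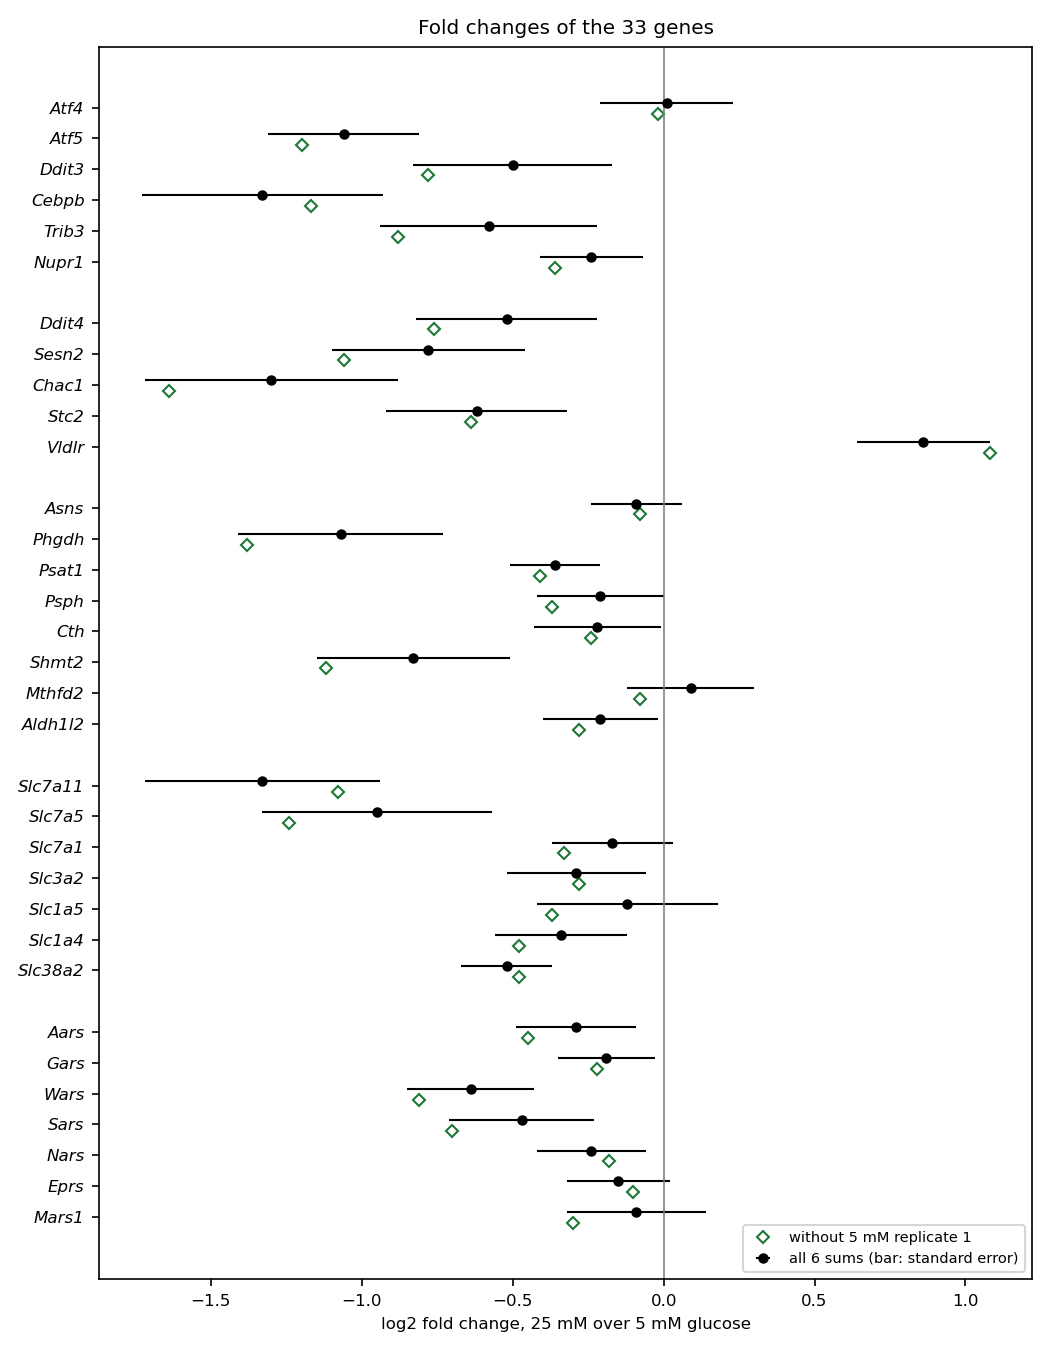
log2 fold change of 25 mM over 5 mM glucose for each gene. Black points with bars are the fit to all 6 sums with its standard error, and open green diamonds the fit without 5 mM replicate 1; 30 of 33 black points lie left of 0, and Chac1, Phgdh and Shmt2 lie farther left without that replicate.

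Many of these FDR values depended on 5 mM replicate 1. In that sample the level was lower than in both other 5 mM replicates in 23 of 33 members (42.3% of all tested genes), and lower than both by more than 1.5 times in 11 members (19.1% of all genes). The 11 were Ddit3, Trib3, Ddit4, Sesn2, Chac1, Phgdh, Shmt2, Slc7a5, Slc1a5, Sars and Mars1. Without 5 mM replicate 1, edgeR called 13 of 33 members at an FDR under 0.05, beside 26.6% of all genes. These were Atf5, Ddit3, Trib3, Ddit4, Sesn2, Chac1, Phgdh, Shmt2, Slc7a5, Slc38a2, Wars and Sars, all lower at 25 mM, and Vldlr, higher. With any of the other 5 replicates left out, edgeR called 0 members, but it also called 0 of all genes in 4 of these fits and 2.27% of them in the fifth, without 25 mM replicate 3. In the plot of fold changes, Slc7a11 and Cebpb moved the other way, to -1.08 and -1.17, since 5 mM replicate 1 held their highest value.

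Several members had unlike fold changes in the batches, but no member or gene had an FDR under 0.05 for this difference (edgeR). Within batch 1 the fold change was negative for 28 of 33 members and within batch 2 for 25, and it was smaller in size in batch 2 for 23. In batch 1 alone edgeR called 7 of 33 members at an FDR under 0.05 (17.3% of all genes), namely Atf5, Cebpb, Slc7a11, Slc7a5, Slc3a2 and Slc38a2, which were lower, and Vldlr, which was higher. In batch 2 alone it called 0 members and 0 of all genes.

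Slc7a11 shows how far technical replicates could stand apart. Its batch 1 libraries held 1573, 794 and 752 CPM at 5 mM and 190.5, 67.0 and 286 CPM at 25 mM, without overlap. Its batch 2 libraries held 308, 408 and 671 CPM at 5 mM and 116, 576 and 544 CPM at 25 mM, which overlapped. The 5 mM replicate 1 thus had 1573 CPM in batch 1 and 308 CPM in batch 2. In the other direction, 25 mM replicate 2 had 67.0 and 576 CPM, and 25 mM replicate 3 had 286 and 544 CPM. Over all libraries of a batch the log2 fold changes were -2.55 (batch 1) and -0.15 (batch 2). The test of a difference between batches, given below, did not call Slc7a11 (edgeR FDR 0.315).

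Slc38a2, with 273, 241 and 258 CPM against 127, 155 and 135 CPM in batch 1, also did not overlap there. In batch 2 it had 198, 181 and 214 CPM against 195, 176 and 191 CPM, and the log2 fold changes were -0.92 and -0.08. Cebpb (-2.44 and -0.33), Slc7a5 (-1.77 and -0.21) and Slc3a2 (-1.06 and 0.30) behaved similarly. Ddit3 (0.01 and -0.96) and Nupr1 (0.29 and -0.65) had the larger negative value in batch 2. Chac1 (-1.27 and -1.36), Phgdh (-1.01 and -1.09) and Shmt2 (-0.82 and -0.83) were nearly equal in the batches. A direct test of whether the glucose effect differs between batches gave an unadjusted p under 0.05 in 7 members, beside 16.3% of all genes, and an FDR under 0.05 in 0 members and 0 genes (edgeR, lowest member FDR 0.178).

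**Figure D3:**
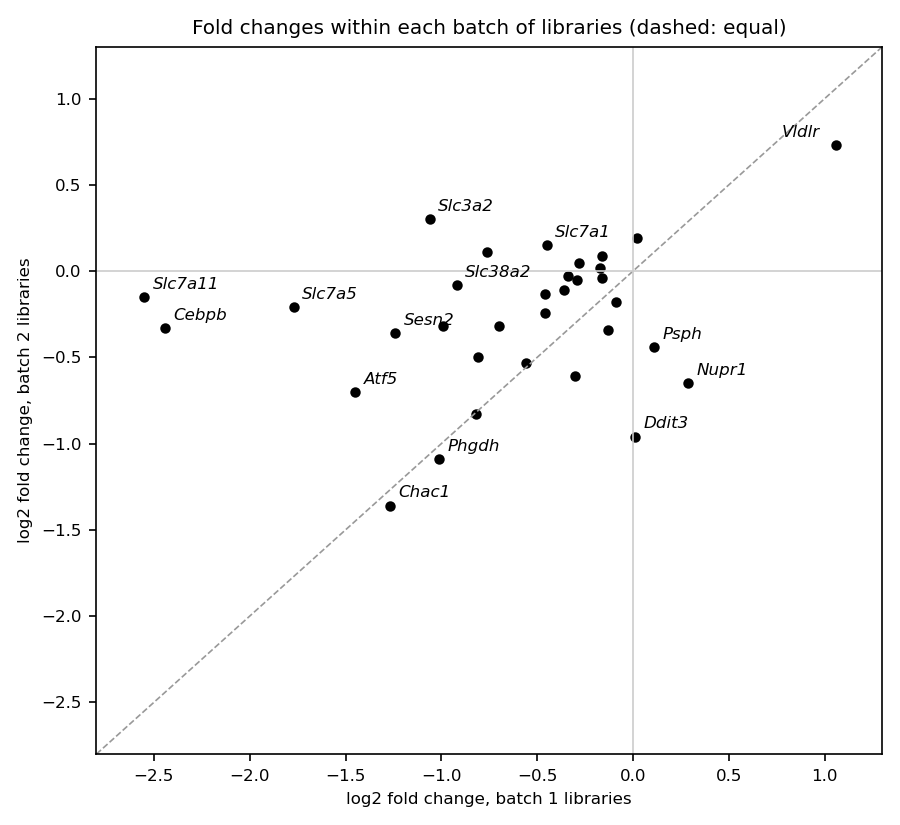
log2 fold change of 25 mM over 5 mM in batch 1 libraries (horizontal) against batch 2 libraries (vertical), 1 point per gene, with the dashed line marking equal values. Slc7a11, Cebpb and Slc7a5 lie far from the line, near 0 in batch 2, while Chac1 and Phgdh lie on it and Vldlr is positive in both.

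Base composition moved with the fold changes. The annotated transcripts of the members had a median GC content of 53.2% (40.7% for Slc7a11 to 67.2% for Cebpb), against 48.7% over tested genes with a value (96.4% of them). Across the 33 genes, GC content and log2 fold change had a Spearman rho of -0.47, and across tested genes with a value -0.43. Genes share libraries and are not replicates, so these are descriptions. The median log2 fold change was -0.80 for the 12 members with over 55% GC and -0.22 for the other 21. Once GC content and transcript length were corrected for, these medians were -0.22 and -0.19. The correction was fitted to these same 6 sums and removes any difference between conditions that goes with GC content, whatever its origin. That the medians came closer therefore follows from the correction.

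With that correction, edgeR called 3 of 33 members at an FDR under 0.05 (14.0% of all genes). They were Slc7a11 (-1.58, FDR 0.0371) and Slc38a2 (-0.67, FDR 0.0258), both of low GC content, and Vldlr (0.76, FDR 0.0160). Sesn2 went from -0.78 to -0.18, Shmt2 from -0.83 to -0.27, Atf5 from -1.06 to -0.54 and Phgdh from -1.07 to -0.52. Ddit4 went from -0.52 to -0.01. Aars, Slc1a5 and Mars1 became positive, at 0.18, 0.36 and 0.21. The part of base composition in the uncorrected values was not tested, and this refit cannot measure it.

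**Figure D4:**
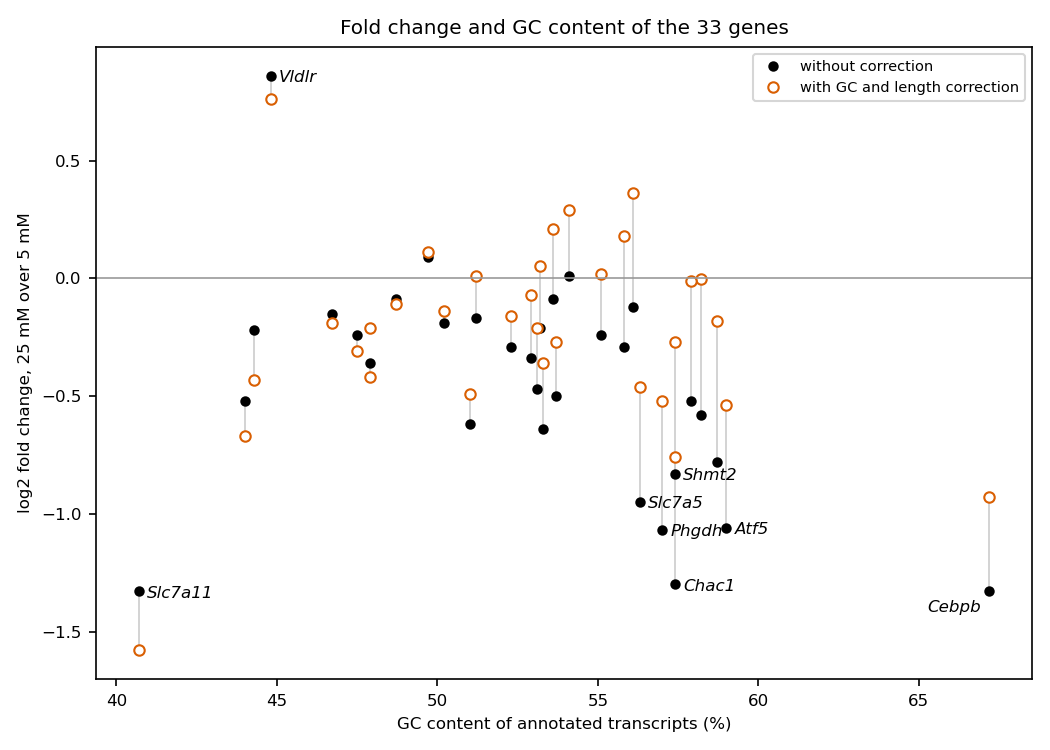
GC content of annotated transcripts in percent (horizontal) against log2 fold change of 25 mM over 5 mM (vertical) for the 33 genes, before (black) and after (open orange) correction for GC content and length, joined by a grey line per gene. Most genes above 55% GC move towards 0, while Slc7a11 moves from -1.33 to -1.58 and Vldlr stays above 0.

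Counts of single transcripts gave a further view of the members. GENCODE lists retained-intron transcripts, which keep an intron in the mature RNA, for 26 of the 33 genes. In 12 of these 26, the share of the gene's counts assigned to retained-intron transcripts was higher in every 25 mM replicate than in every 5 mM replicate, beside 32.5% of the 7632 genes with such transcripts and enough counts. In 0 of 26 it was lower in every 25 mM replicate, beside 1.13% of those genes. The direction was thus shared with genes in general.

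Mars1 had shares of 35.3%, 32.5% and 32.5% at 5 mM and 58.3%, 59.9% and 35.9% at 25 mM. Slc38a2 had 14.1%, 14.2% and 16.4% against 18.6%, 17.8% and 18.1%, and Mthfd2 2.72%, 2.99% and 4.60% against 11.2%, 9.64% and 6.82%. In all 3 the groups did not overlap. Slc1a5 had 6.61%, 42.8% and 47.2% against 11.9%, 31.8% and 21.2%, with the lowest and the highest values both at 5 mM. Psat1 had 31.2%, 9.15% and 12.4% at 5 mM and 26.8%, 35.6% and 21.9% at 25 mM, and Ddit3 31.1%, 9.20% and 12.4% against 21.05%, 30.2% and 17.9%. Aars had 19.99%, 6.997% and 8.16% against 16.6%, 21.99% and 14.5%. In these 3 genes, 5 mM replicates 2 and 3 were lower than every 25 mM value, while 5 mM replicate 1 fell within the 25 mM range in Psat1 and Aars and above it in Ddit3. Counted over protein-coding transcripts alone, a setting chosen after seeing the data, the log2 fold change was -0.48 for Psat1 and -0.34 for Mars1. In that fit edgeR called 0 members at an FDR under 0.05, beside only 54 of 15513 genes tested.

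**Figure D5:**
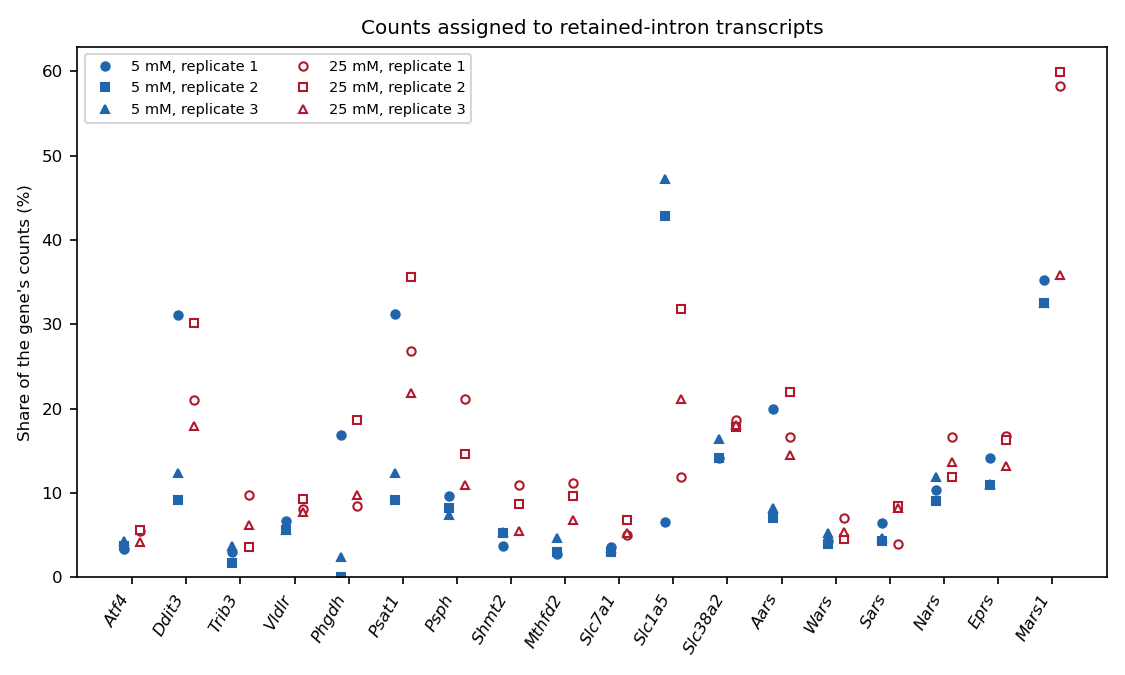
Share of each gene's summed counts assigned to retained-intron transcripts, in percent, for the members in which it reached 5% in a replicate. Filled blue points are 5 mM and open red points 25 mM; the 25 mM shares of Slc38a2, Mthfd2 and Mars1 all lie above their 5 mM shares, and in Ddit3, Psat1 and Aars 5 mM replicate 1 lies above the other 5 mM points.

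Other genes of the pathway were mostly lower at 25 mM as well, again with 0 at an FDR under 0.05 in each list in the uncorrected edgeR fit. Of 17 tested further targets of ATF4, 13 had a negative fold change (median -0.30) and 4 an unadjusted p under 0.05, all lower, beside 15.5% of all genes. With the GC and length correction, 11 were negative and the median was -0.12. The lowest p on the lower side was that of Eif4ebp1, the translation inhibitor 4E-BP1, with 12.2, 32.5 and 33.4 CPM at 5 mM and 8.53, 7.69 and 14.9 CPM at 25 mM (-1.33, FDR 0.0971). Its 5 mM replicate 1 lay within the 25 mM range, and its log2 fold changes in batch 1 and batch 2 were -1.33 and -1.34. On the higher side it was Bcat1, a branched-chain aminotransferase (0.26, FDR 0.355).

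Upstream of ATF4, the 10 genes of eIF2 alpha, its kinases and phosphatase subunits and the mitochondrial relay were split, with 6 negative and 4 positive fold changes and a median of -0.12. With the GC and length correction, 4 were negative and the median was 0.02. Eif2ak2, the kinase PKR, had 106, 61.8 and 72.0 CPM at 5 mM and 128, 147 and 105 CPM at 25 mM (0.66, edgeR FDR 0.119). Eif2s1, which encodes eIF2 alpha, had -0.37 (edgeR FDR 0.176).

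The other cytosolic tRNA synthetases were 9 negative to 4 positive (median -0.12), led by Kars, for lysine (-0.62, edgeR FDR 0.105), and Cars, for cysteine (0.08, FDR 0.786). The 17 mitochondrial synthetases, which are not textbook ATF4 targets, were 8 negative to 9 positive with a median of 0.01. Their leading genes were Iars2 (-0.13, edgeR FDR 0.558) and Mars2 (0.66, edgeR FDR 0.157). With the GC and length correction, the medians of the cytosolic and mitochondrial lists were -0.12 and 0.18.

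Of 11 other folate and cysteine enzymes, 10 were negative (median -0.33) and 4 had an unadjusted p under 0.05, all lower, beside 15.5% of all genes. Tyms, thymidylate synthase, had 40.4, 35.2 and 29.3 CPM at 5 mM and 14.7, 22.9 and 21.8 CPM at 25 mM, without overlap (-0.82, edgeR FDR 0.0798). Mthfd1, a cytosolic folate enzyme, was the only positive one (0.02). Of 19 tested other amino acid transporters, 13 were negative and 6 positive (median -0.25). Slc38a9, the lysosomal arginine sensor, had 53.1, 53.7 and 57.6 CPM at 5 mM and 108, 91.9 and 77.1 CPM at 25 mM (0.75, edgeR FDR 0.0609). Slc7a7, a light chain for basic amino acids, had 11.5, 27.1 and 24.2 CPM against 2.62, 6.27 and 9.72 CPM (-1.75, edgeR FDR 0.0802). The log2 fold changes in batch 1 and batch 2 were -1.25 and -0.33 for Tyms, -2.79 and -0.71 for Slc7a7, and 1.02 and 0.60 for Slc38a9. With the GC and length correction, the medians were -0.32 for the folate and cysteine enzymes and -0.10 for the transporters.

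Library totals were 14815285 to 36692484 estimated counts. After the technical replicates were summed, they were 43002302 to 60098862 at 5 mM and 37944826 to 42451809 at 25 mM, without overlap. Batch 1 libraries held 22970526 to 36692484 at 5 mM and 14815285 to 19569553 at 25 mM, while batch 2 libraries overlapped. The part of depth in the fold changes was not tested. The labelled tissue showed rod markers at 2925 to 5548 CPM in sum at 5 mM and 6383 to 8854 CPM at 25 mM (10 of 10 higher). Cone markers summed to 64.8 to 90.0 and 87.8 to 106 CPM (5 of 8 higher). At an edgeR FDR under 0.05, 6 rod markers and 1 cone marker were called, all higher, beside 1.98% of all genes. No marker of the cell types that follow was called. Vascular markers summed to 1225 to 2073 and 620.1 to 1107 CPM (9 of 10 lower), microglial markers to 355 to 484 and 139.6 to 294 CPM (9 of 9 lower), and markers of astrocytes and reactive glia to 2809 to 4176 and 1269 to 2461 CPM (6 of 6 lower). Mueller glia markers summed to 2873 to 3079 and 2471 to 3233 CPM (6 of 11 lower), bipolar markers to 1362 to 1554 and 1206 to 1507 CPM (3 of 8 lower), amacrine markers to 462 to 563 and 295 to 440.1 CPM (5 of 8 lower) and ganglion cell markers to 202 to 349 and 229 to 316 CPM (3 of 8 lower). Pigment epithelium markers summed to 3.88 to 4.72 and 1.61 to 3.07 CPM, with Rpe65, Best1, Lrat, Tyr, Mlana and Pmel below 1 CPM in every replicate. The part of cell composition in the levels of the 33 genes was not tested.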

How the data were processed

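RNA-seq libraries of 6 retinal explant samples, 2 technical replicates each, were made with a stranded total RNA kit. The authors deposited estimated counts per gene and per transcript; the processing notes name GRCm38, the quantifier and its use of strand are not given in the sources used here, and 0 columns were left unused. Technical replicates were summed and rounded. Low counts were filtered with filterByExpr, and 25 mM was compared with 5 mM by the quasi-likelihood test of edgeR 4.0.16 (TMM, Benjamini-Hochberg over 21061 genes). Standard errors are those implied by the F statistic. DESeq2 1.42.0 and limma 3.58.1 served as alternatives, as did other scalings and filters, single batches, a block, a GC and length correction, transcript sums and left-out replicates. CPM used TMM factors, and TPM used annotated transcript lengths. Symbols and positions came from GENCODE M21 (GRCm38) and promoters from RefSeq (GRCm38.p6). The fit was also run on counts simulated without batches, a GC trend or an outlying replicate, so that run does not bear on these features. Retained-intron shares needed 60 counts in each sum.

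The 33 genes and all lists were chosen with earlier results of these data known. All members are named. Of each other list apart from the markers, the gene with the lowest unadjusted p in each direction is named, since none passed the FDR. Markers are given as sums and counts. Ddit3 has 2 identifiers, and the one with most counts was used; the other held 0 to 14 counts per library. The promoter window of 1 gene is not reported here.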

Additional observations from a re-analysis of the deposited data

Results flagged for a closer look

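The 6 libraries of each condition were examined for a value far from the others, and 2 of the 66 groups examined here were flagged. For 6 independent libraries, chance flags about 1 of 20 groups, or 3.30 of 66. The libraries here are pairs of technical replicates and are not independent. The number flagged is therefore not compared with 3.30. Vldlr had 179.6 CPM in the second technical replicate of 5 mM replicate 1, where the other 5 mM libraries held 84.5 to 104 CPM. Slc1a4 had 29.1 CPM in the second technical replicate of 25 mM replicate 1, where the others held 15.9 to 20.6 CPM.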

How the results depend on the processing

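Of 792 pairs of a member and an alternative, 753 kept the direction and 39 reversed, and 19 members never reversed. The median of the members stayed negative in all 24 alternatives, from -0.46 in batch 1 alone to -0.19 after the GC and length correction. The called members and genes depended far more on the setting, and the cause was not tested. In place of 0 members and 417 genes, DESeq2 called 7 and 3489, no filter 4 and 1979, the 12 libraries 6 and 2918, batch 1 alone 7 and 3279, the GC and length correction 3 and 2845, and the protein-coding transcripts 0 and 54. The fit of the 12 libraries had a batch term but took technical replicates as independent samples. Its calls therefore do not measure the spread between biological replicates. Batch 2 alone called 0 genes. An FDR under 0.1 gave 7 members. Leaving out a replicate gave 0 to 13 members and 0 to 5845 genes, with the highest of both without 5 mM replicate 1. Among alternatives chosen after seeing the data, leaving out the second technical replicate of 5 mM replicate 1 gave 2 members and 1731 genes, and leaving out the first of 25 mM replicate 2 gave 0 genes. Protein-coding transcripts alone, also chosen after seeing the data, gave 0 members and 54 genes.

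Over all tested genes, the deviations of same-numbered replicates from their group means correlated at 0.02, -0.59 and 0.39. With 3 replicates per condition, these values cannot settle whether the replicates were paired. A replicate block called 990 genes and 0 members, and with the GC and length correction 3325 genes and 3 members. Atf4 was -0.02 with the block, and with block and correction together Trib3 was 0.0011, Nupr1 0.03, Psph 0.05, Slc7a1 0.02, Slc1a5 0.36, Aars 0.19 and Mars1 0.21.

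The remaining reversals were as follows. Atf4 was -0.02 with limma-voom and with 12 libraries, -0.0026 without a filter, -0.16 in batch 1 and -0.04 with technical replicates at equal depth. In batch 1 alone Ddit3 was 0.01, Nupr1 0.29 and Psph 0.11. In batch 2 alone Slc7a1 was 0.15, Slc3a2 0.30, Slc1a5 0.05, Slc1a4 0.11 and Mars1 0.02. With the correction alone Nupr1 was 0.02, Psph 0.05, Slc7a1 0.01, Slc1a5 0.36, Aars 0.18 and Mars1 0.21. With transcript sums Mthfd2 was -0.15, and with coding transcripts alone Asns was 0.04, Mthfd2 -0.10, Slc1a5 0.05 and Nars 0.07. With a replicate left out, Atf4 ranged from -0.22 to 0.18, Mthfd2 from -0.08 to 0.22, Slc1a5 from -0.37 to 0.05 and Mars1 from -0.30 to 0.02. Standard errors of the members ran from 0.15 to 0.42.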
